A study of Homo sapiens with 4 samples.

Results

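The peroxiredoxin, thioredoxin and glutathione peroxidase genes are a set of 10 genes that remove peroxides or supply the electrons for it. They are PRDX1 to PRDX6, TXN, TXNRD1, GPX1 and GPX4, taken by symbol from a table of 26364 gene symbols, and all 10 were found. The set was built around PRDX2, which had been picked because it moved toward light polysomes in cells labelled Dicer1 knockout. That move is therefore given below as a description, with no test.

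The RNA came from HCT116, a human colorectal carcinoma cell line, and was taken from cytoplasmic extracts separated on sucrose gradients, in which an mRNA sinks further the more ribosomes it carries. The 4 groups were heavy and light polysomes of cells labelled Dicer1 knockout and heavy and light polysomes of wild type cells, with 1 library each. Heavy polysomes held mRNAs with 10 or more ribosomes and light polysomes those with 9 or fewer. No treatment or time is given in the labels, which also do not say which part of DICER1 was altered or whether the line is 1 clone. With 1 library per group, differences between the genotypes were not checked by replicates. In bulk libraries, fewer cells holding an mRNA and less of it per cell cannot be told apart.

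The libraries held 19238492 counts (labelled knockout heavy), 17457116 (labelled knockout light), 20933675 (wild type heavy) and 19727010 (wild type light). RNA45S5, the ribosomal RNA precursor, took 4.32% and 5.97% of the counts in heavy and light polysomes of the labelled knockout. In those of the wild type it took 2.61% and 3.59%. Any other ribosomal RNA is not in these shares. DICER1 mRNA was not reduced: it had 925 and 889 counts in heavy and light polysomes of the labelled knockout, against 500 and 547 in the wild type. Reads summed over the gene do not tell an intact enzyme from an altered one, so the group is called the labelled knockout, and each genotype difference rests on its label. All 8 epithelial markers checked, among them KRT19 and KRT8, were present with no count under 719. Among 8 markers of red cells, which are rich in PRDX2 protein, no count exceeded 14. Of 12 stromal and white cell markers, COL1A1 alone had 50 or more counts in each library.

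Peroxiredoxins reduce hydrogen peroxide with a cysteine, called the peroxidatic cysteine, which is oxidised in the process. In most of them thioredoxin then restores the cysteine, and thioredoxin reductase recharges thioredoxin with electrons from NADPH. Glutathione peroxidases do the same work with glutathione as the donor. GPX1, GPX4 and TXNRD1 are selenoproteins: their mRNAs hold a UGA codon that is read as selenocysteine and not as a stop. Because ribosomes sit along the coding sequence, a short mRNA has room for few of them, and coding length is the first thing to know about each gene here.

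The sequences below show the catalytic codons that define the family, as 10 codons (30 bases) of coding sequence from the GENCODE 44 canonical transcripts on GRCh38. The capitals mark the peroxidatic cysteine codon in the peroxiredoxins, both active-site cysteine codons in TXN, and the in-frame UGA (TGA in DNA letters) in the 3 selenoproteins.
PRDX1: cctcttgacttcacctttgtgTGCcccacg
PRDX2: cctctggacttcacttttgtgTGCcccacc
PRDX3: cctttggatttcacctttgtgTGTcctaca
PRDX4: ccacttgatttcacatttgtgTGTccaact
PRDX5: cctggggccttcacccctggaTGTtccaag
PRDX6: cctcgggactttaccccagtgTGCaccaca
TXN: gccacgtggTGTgggcctTGCaaaatgatc
TXNRD1: agcatcctccaggctggctgcTGAggttaa
GPX1: gtggcgtccctcTGAggcaccacggtccgg
GPX4: gtggcctcccagTGAggcaagaccgaagta

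Counted from the start codon, the marked codon is number 51 in PRDX2, 52 in PRDX1, 49 in GPX1, 73 in GPX4 and 648 in TXNRD1. In TXNRD1 it lies 1 codon before the end of the protein, which has 649 codons, whereas in GPX1 and GPX4 it lies in the first part of the coding sequence. The window of PRDX2 is chr19:12801014-12801043 on the minus strand, in exon 3, and that of TXNRD1 is chr12:104348392-104348421 on the plus strand, in exon 17, the last. The windows of PRDX3 and PRDX4 each span an exon junction. Across whole coding sequences PRDX2 was 72.4% identical to PRDX1, with a longest shared run of 14 bases, and 63.5% identical to PRDX3, with a longest run of 9 bases.

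On GRCh38, PRDX1 lies on chromosome 1 from 45510914 to 45542732, PRDX2 on chromosome 19 from 12796820 to 12801800 and PRDX3 on chromosome 10 from 119167720 to 119178812, all on the minus strand. PRDX4 lies on chromosome X from 23664262 to 23686397, PRDX5 on chromosome 11 from 64318121 to 64321811 and PRDX6 on chromosome 1 from 173477330 to 173488815, all on the plus strand. TXN lies on chromosome 9 from 110243810 to 110256507 (minus), TXNRD1 on chromosome 12 from 104215779 to 104350307 (plus), GPX1 on chromosome 3 from 49357174 to 49358605 (minus) and GPX4 on chromosome 19 from 1103982 to 1106791 (plus). Some counts are uncertain because the strand setting is not given in the sources used here. MMACHC, on the opposite strand, overlaps 38.5% of the exon length of PRDX1, although MMACHC itself had 215 to 331 counts per library. For PRDX2 an unnamed gene on the opposite strand covers 26.7% of the exon length, and for GPX1 an unnamed gene on the same strand covers 63.6%. GENCODE also lists pseudogenes named after these genes, 7 of TXN, 4 each of PRDX2 and PRDX3, 2 of GPX1 and 1 each of PRDX1, PRDX4 and PRDX5, with which reads may be shared.

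All 10 genes were abundant, with 3305 to 30752 counts in a library, so that counting error was small. Set per kilobase of transcript, as the mean of the 4 libraries in TMM-scaled CPM (counts scaled to 1000000 reads and to equal library composition), PRDX1 was the highest of the set at 1332 CPM per kilobase. TXN (661), GPX4 (602), PRDX2 (531) and PRDX5 (487) followed. Below them stood PRDX3 (397), GPX1 (341), PRDX6 (269.5) and PRDX4 (236), and TXNRD1 was lowest at 117. Neighbours in this order had overlapping ranges over the libraries, except for TXNRD1: PRDX2 ran from 340.1 to 774 and PRDX5 from 313 to 604 CPM per kilobase, whereas TXNRD1 ran from 94.0 to 167, below every value of the other 9 genes.

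**Figure D1:**
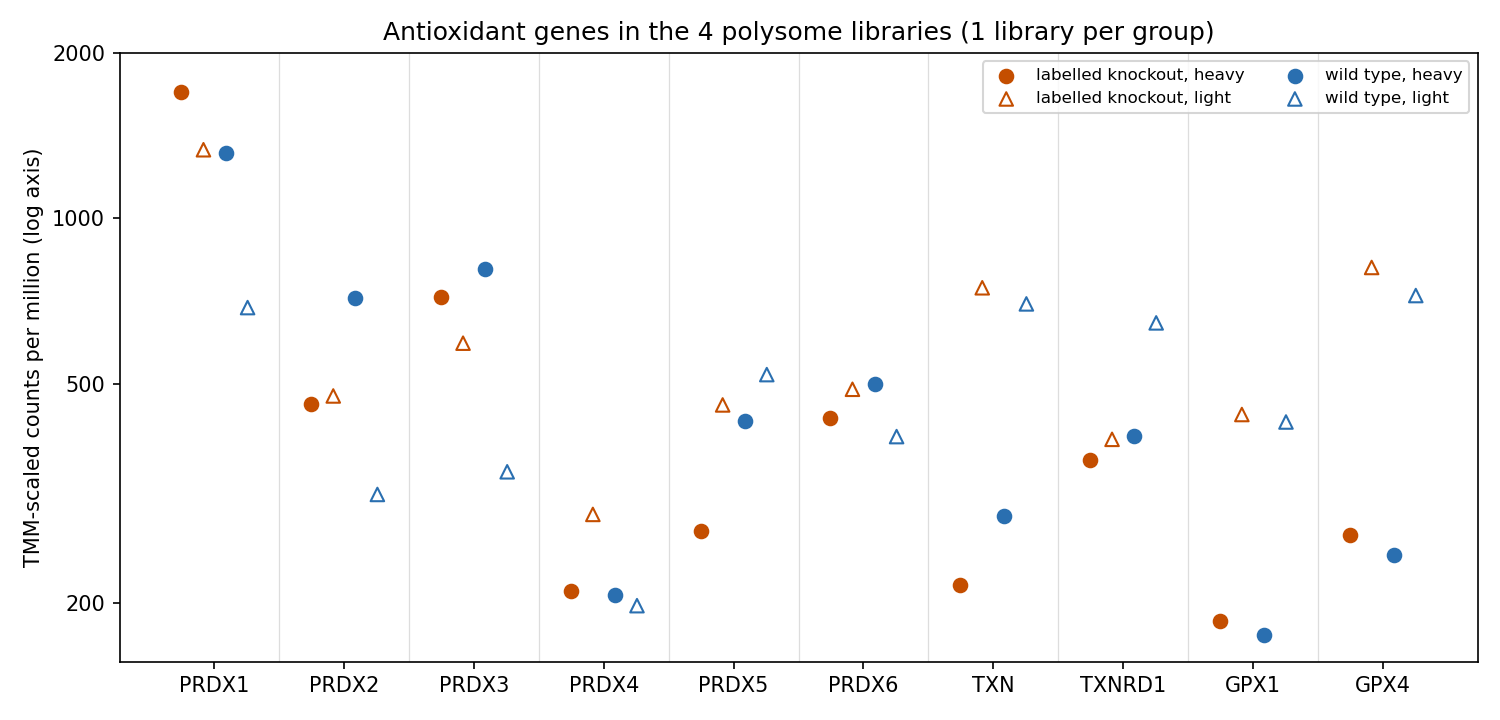
TMM-scaled CPM (log axis) of the 10 genes in each of the 4 libraries; orange marks the labelled knockout and blue the wild type, filled circles heavy and open triangles light polysomes, with 1 library per point. Both labelled knockout points of PRDX2 (460.1 heavy and 475 light) lie between its wild type heavy (716) and wild type light points (315).

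Of the peroxiredoxins, PRDX1, PRDX2 and PRDX3 stood highest in heavy over light polysomes of the wild type. With TMM scaling PRDX6 and PRDX4 were also higher in heavy polysomes there, by less, and PRDX5 was lower. PRDX2, a cytosolic peroxiredoxin best known from red blood cells, had 460.1 CPM in heavy and 475 CPM in light polysomes of the labelled knockout, against 716 and 315 CPM in those of the wild type. Its level was thus nearly even between the fractions of the labelled knockout and clearly uneven in the wild type. PRDX1, the most abundant cytosolic form, had 1699 and 1334 CPM in heavy and light polysomes of the labelled knockout, against 1315 and 688 CPM in the wild type. PRDX3, the mitochondrial form, had 719.7 and 593 CPM in the labelled knockout, against 810.1 and 346 CPM in the wild type. For both genes the heavy library was the higher in each gradient, by a smaller margin in the labelled knockout.

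PRDX4, which works in the endoplasmic reticulum, had 210.3 CPM in heavy and 289 CPM in light polysomes of the labelled knockout, against 206 and 197 CPM in the wild type. The labelled knockout light library alone stood apart for it. PRDX5, found in mitochondria, peroxisomes and the cytosol, had 269.6 and 458 CPM in heavy and light polysomes of the labelled knockout, against 428 and 519.8 CPM in the wild type. PRDX6, the form with a single catalytic cysteine and a further phospholipase activity, had 433 and 489 CPM in the labelled knockout, against 499 and 401 CPM in the wild type. Only PRDX5 of these was higher in light polysomes of both gradients, and with library totals in place of TMM the wild type ratio of PRDX4 also turned to the light side (log2 -0.24).

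TXN, the small electron carrier that serves the peroxiredoxins, had 215 CPM in heavy and 748 CPM in light polysomes of the labelled knockout, against 288 and 699 CPM in the wild type. TXNRD1, the cytosolic reductase that recharges it, had 363 and 396 CPM in the labelled knockout, against 403 and 646 CPM in the wild type. Both lay on the light side in each gradient, TXN far more than TXNRD1. GPX1, the abundant cytosolic glutathione peroxidase, had 185 and 439.8 CPM in heavy and light polysomes of the labelled knockout, against 175 and 426 CPM in the wild type. GPX4, which reduces lipid peroxides in membranes and holds back ferroptosis, had 266 and 814 CPM in the labelled knockout, against 244 and 724 CPM in the wild type. In these 2 genes the light libraries were the higher ones and the genotypes lay close together.

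The first comparison asked which mRNAs lie in heavy and which in light polysomes, with the 2 gradients as replicates. Of the 9 genes other than PRDX2, 3 were called toward light polysomes and 1 toward heavy polysomes at an adjusted p under 0.05. Over all 13574 genes tested, 29.3% were called light and 30.0% heavy, so these counts lie near the background. GPX4 fell by a fitted log2 ratio of 1.59 in heavy against light polysomes (SE 0.32, edgeR quasi-likelihood test, adjusted p = 3.90e-06, lower in 2 of 2 gradients). TXN fell by 1.54 (SE 0.32, edgeR adjusted p = 7.87e-06) and GPX1 fell by 1.27 (SE 0.31, edgeR adjusted p = 0.000134), each lower in 2 of 2 gradients. PRDX3 rose by 0.75 (SE 0.32, edgeR adjusted p = 0.0333, higher in 2 of 2 gradients). The call of PRDX3 was lost with RLE size factors (edgeR adjusted p = 0.0556), and its adjusted p ran from 0.0226 to 0.125 over 6 alternatives.

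The other 5 genes did not pass. PRDX1 stood at a log2 ratio of 0.64 (edgeR adjusted p = 0.0791), PRDX5 at -0.52 (0.134), TXNRD1 at -0.40 (0.255), PRDX4 at -0.20 (0.576) and PRDX6 at 0.07 (0.858), and a p that misses the threshold does not show equal amounts. The fitted value of PRDX2 was 0.57 (SE 0.32). It is given with no p because the gene was picked for the difference between the gradients, which this test takes as replicates. The median of all 10 genes was -0.30, beside -0.07 over all genes tested. With library totals in place of TMM the median of all genes moved to -0.30 and the share of called genes that were higher in heavy polysomes moved to 38.9% from 50.6%. Under that scaling PRDX5 (edgeR adjusted p = 0.00946, 0.00946 to 0.247 over 6 alternatives) and TXNRD1 (edgeR adjusted p = 0.03, 0.03 to 0.368) were called light, and PRDX3 was not called.

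**Figure D2:**
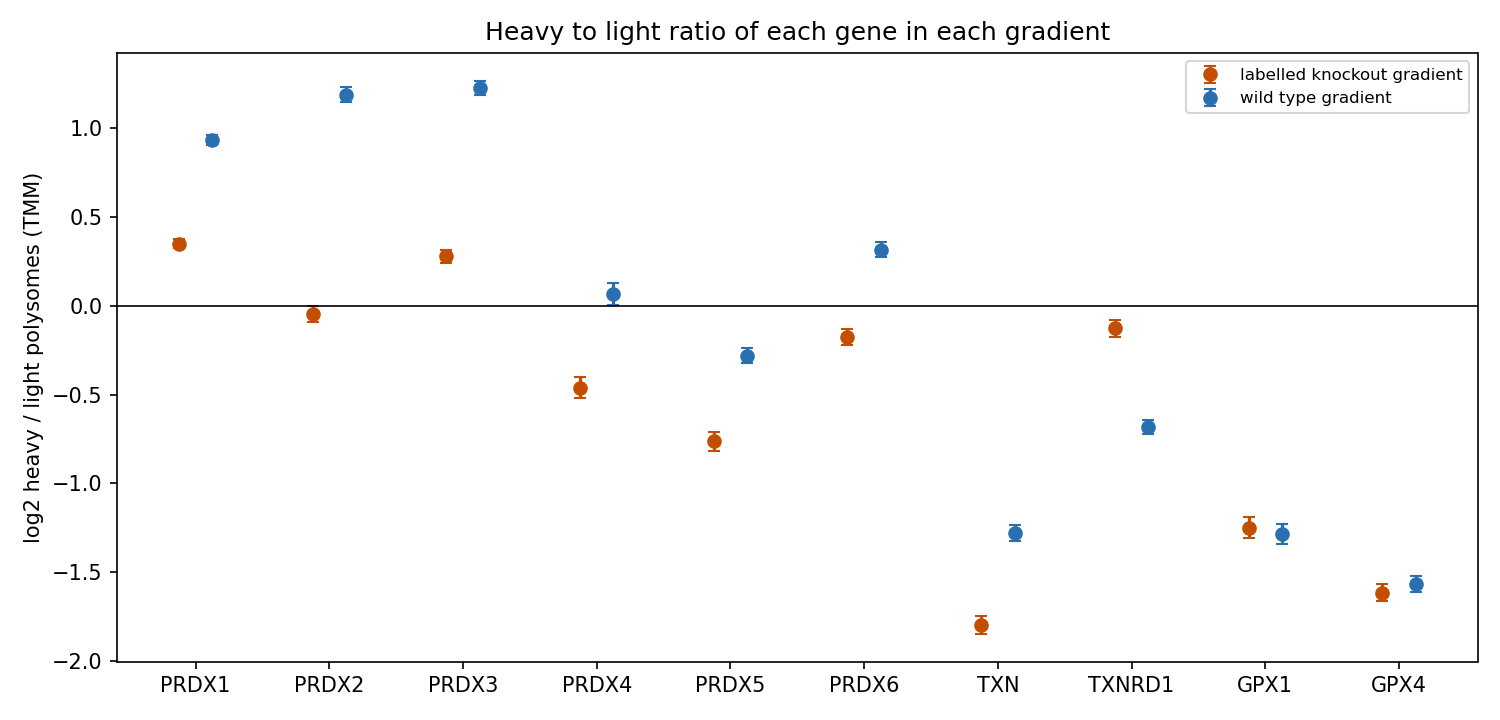
Log2 ratio of heavy to light polysomes (TMM-scaled) for each gene, orange for the labelled knockout gradient and blue for the wild type gradient, with bars for the 95% counting interval. The orange points lie below the blue ones for PRDX1 to PRDX6 and TXN, on them for GPX1 and GPX4, and above for TXNRD1.

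Coding length separated these genes only in part. TXN, with 318 coding nucleotides, belongs to the 849 genes of up to 500 nucleotides, and their log2 heavy to light ratios had a median of -1.24 in each gradient. PRDX1, PRDX2, PRDX5, PRDX6, GPX1 and GPX4 have 594 to 675 nucleotides and share a class of 1201 genes, with medians of -0.66 in the labelled knockout and -0.62 in the wild type. Within that one class the ratios of the 6 genes ran from -1.62 (GPX4) to 0.35 (PRDX1) in the labelled knockout, and from -1.57 (GPX4) to 1.19 (PRDX2) in the wild type.

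GPX4 lay at the 1.83rd percentile of its length class in the labelled knockout and at the 6.33rd in the wild type. GPX1 lay at the 10.4th and 15.0th percentiles. At the other end of the same class PRDX1 lay at the 95.0th and 95.8th percentiles and PRDX2 at the 85.2nd and 97.8th. TXNRD1 has 1950 nucleotides in the canonical transcript (shorter forms are known). It lay at the 22.6th and 15.9th percentiles of 2725 genes of 1501 to 2500 nucleotides, whose medians were 0.49 and 0.50. A form of 1001 to 1500 nucleotides would stand beside lower medians, 0.08 in the labelled knockout and 0.07 in the wild type. TXN lay at the 9.42nd and 46.3rd percentiles of its class. All 3 selenoproteins and TXN were thus on the light side of mRNAs of like length in each gradient, and PRDX1, PRDX2, PRDX3 and PRDX6 on the heavy side. PRDX4 (42.1st and 61.4th) and PRDX5 (41.7th and 64.4th) lay on the light side in the labelled knockout and on the heavy side in the wild type. These percentiles are descriptions, without a test.

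The second comparison asked how far the heavy to light ratio differed between the labelled knockout and the wild type. The difference of both log2 ratios, called the shift, is negative where an mRNA lay further toward light polysomes in the labelled knockout. The log2 heavy to light ratio of PRDX2 was -0.05 in the labelled knockout (95% counting interval -0.09 to -0.0038), against 1.19 in the wild type (1.15 to 1.23). Its shift was -1.23 (-1.29 to -1.17), so that the ratio itself was 2.35-fold lower in the labelled knockout. PRDX2 was picked by this value, and no test applies. It lay at the 0.545th percentile of 10834 genes with 50 or more counts per library, and at the 0.167th percentile of the 1201 genes of its length class.

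PRDX3 came next, with log2 heavy to light ratios of 0.28 in the labelled knockout and 1.23 in the wild type, and a shift of -0.95 (-1.002 to -0.89). PRDX1 had ratios of 0.35 and 0.93 and a shift of -0.58 (-0.62 to -0.55). The remaining peroxiredoxins had shifts in a narrow range, -0.52 for PRDX4, -0.49 for PRDX6 and -0.48 for PRDX5, and TXN stood at -0.52 (-0.58 to -0.45). With TMM scaling, 6 of the 9 genes other than PRDX2 (the other peroxiredoxins and TXN) had a shift below 0 with a counting interval that excluded 0. By the same criterion 1 (TXNRD1) had a shift above 0. Over all 10834 genes the interval lay below 0 in 37.2% and above 0 in 28.6%, and by sign alone the shift was below 0 in 53.5% and above 0 in 46.5%, with a median of -0.05. All genes entered with as few as 50 counts in a library and the 10 genes had at least 3305, so their intervals were narrower than those of genes with low counts.

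The selenoproteins did not follow. GPX1 had a shift of 0.04 (-0.04 to 0.12) and GPX4 one of -0.05 (-0.12 to 0.02), and with TMM scaling both intervals include 0. The sign of each changed with the scaling, from -0.04 to 0.18 for GPX1 and from -0.13 to 0.09 for GPX4. TXNRD1 moved the other way, with log2 heavy to light ratios of -0.13 in the labelled knockout and -0.68 in the wild type and a shift of 0.55 (0.49 to 0.62). It lay at the 88.1st percentile of all genes. TXN and its reductase therefore had shifts of opposite sign, whichever scaling was used.

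PRDX2 was the only gene of the set past a 2-fold shift with TMM scaling. Among all genes, 2.37% shifted at least 2-fold toward light polysomes and 0.905% toward heavy polysomes with an interval that excluded 0, a contrast that chose PRDX2 and is given for scale only. That order depended on the scaling: 257 genes shifted toward light and 98 toward heavy polysomes with TMM, 390 and 52 with RLE size factors, and 107 and 265 with library totals. With RLE size factors PRDX3 passed it too (-1.02). The counting intervals cover counting error only and not the spread between cultures or gradients. The ratios of all genes were spread less widely in the labelled knockout gradient (SD over genes 0.905) than in the wild type gradient (1.17). Among the 630 genes whose mean ratio over both gradients lay within 0.1 of that of PRDX2 the median shift was -0.16, and among the 232 such genes for TXN it was 0.25. Relative to these genes of like ratio the shift was -1.08 for PRDX2, -0.73 for PRDX3, -0.76 for TXN and 0.37 for TXNRD1, and GPX1 (-0.20) and GPX4 (-0.24) came to lie below 0 as well. Relative to the length class it was -1.13 for PRDX2, -0.83 for PRDX3, -0.49 for TXN and 0.57 for TXNRD1.

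**Figure D3:**
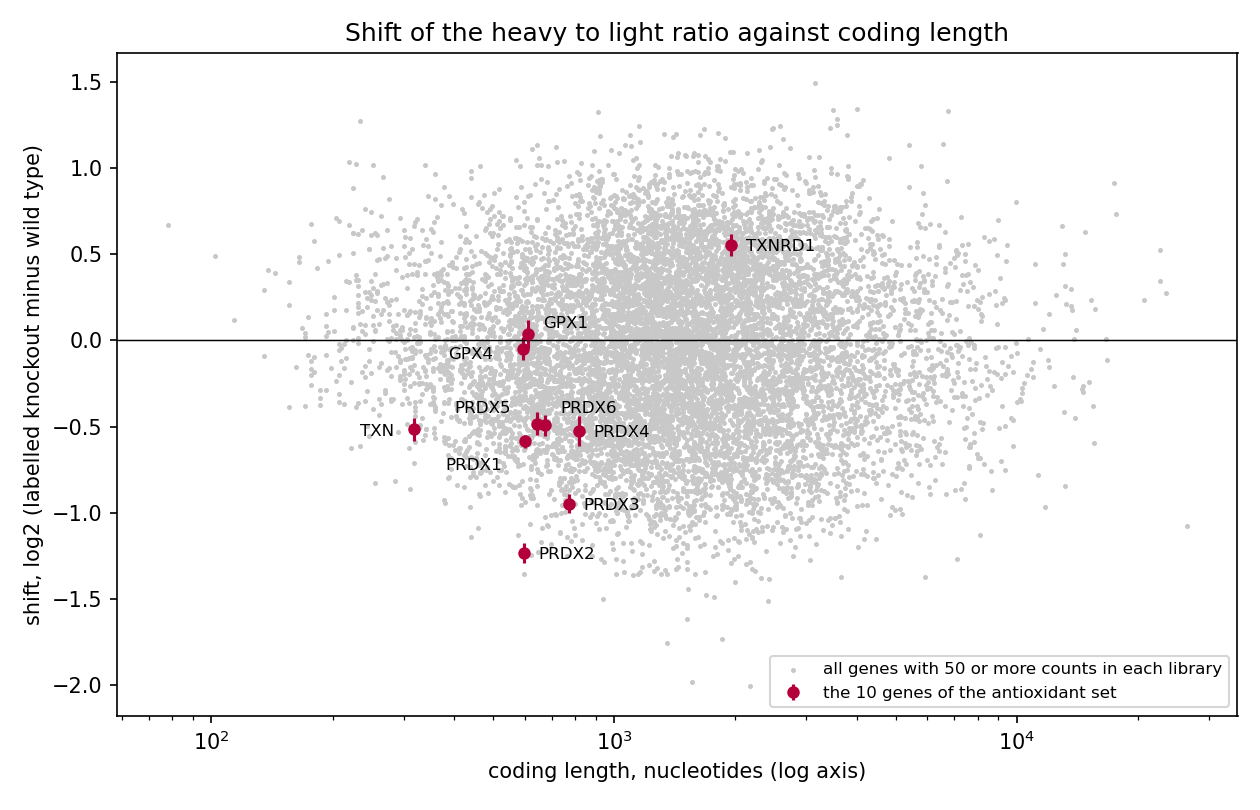
Shift of the log2 heavy to light ratio (labelled knockout minus wild type) against coding length in nucleotides (log axis), with all genes of 50 or more counts in each library in grey and the 10 genes in red with 95% counting intervals. PRDX2 (-1.23) and PRDX3 (-0.95) lie at the lower edge of the grey cloud, GPX1 and GPX4 on 0 and TXNRD1 (0.55) in its upper part.

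The third comparison concerned the level of each mRNA in 1 fraction, labelled knockout over wild type. PRDX2 is left out of these counts, because its ratios make up the shift it was picked for. In light polysomes, with TMM scaling, 7 of the other 9 genes were higher in the labelled knockout and 2 lower, with counting intervals that excluded 0. The 7 depends on the scaling: with library totals GPX1 stood at -0.04 and TXN at 0.0125. By the same criterion 38.0% of all 10992 genes were higher and 36.2% lower, among them genes with lower counts and wider intervals. In heavy polysomes 3 of the 9 were higher and 5 lower, beside 33.0% higher and 39.7% lower of all 10690 genes. The shift is the difference of these ratios, so both comparisons rest on the same 4 libraries. With TMM scaling none of the 10 reached a 2-fold difference in either fraction, and with RLE size factors PRDX1 in light polysomes stood just past it (log2 ratio 1.001). Over all genes, 3.26% were at least 2-fold higher and 2.60% lower in heavy polysomes of the labelled knockout, and 3.91% and 3.05% in light polysomes. In light polysomes these were 430 genes higher and 335 lower with TMM, and the balance turned with library totals, to 336 higher and 443 lower.

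PRDX1 was higher in both fractions of the labelled knockout, by a log2 ratio of 0.37 in heavy (0.35 to 0.39) and 0.95 in light polysomes (0.92 to 0.98). The value in light polysomes lay at the 95.4th percentile of all genes. PRDX2 differed in opposite directions, at -0.64 in heavy (-0.68 to -0.60) and 0.60 in light polysomes (0.55 to 0.64). PRDX3 had -0.17 and 0.78, PRDX6 -0.21 and 0.29, and TXN -0.42 and 0.10. In PRDX3 the difference in light polysomes was the larger one, in TXN that in heavy polysomes.

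PRDX5 was lower in both fractions, at -0.67 in heavy (-0.72 to -0.62) and -0.18 in light polysomes (-0.22 to -0.14). TXNRD1 was lower in both as well, with most of the difference in light polysomes (-0.70, -0.74 to -0.66) and little in heavy ones (-0.15). PRDX4 had 0.03 (-0.04 to 0.09) in heavy, where its sign changed with RLE size factors (-0.0025), and 0.55 in light polysomes. GPX1 (0.08 and 0.05) and GPX4 (0.12 and 0.17) differed least over both fractions, and for GPX1 the sign in light polysomes changed with library totals (-0.04). Similar shifts thus came from different pairs of ratios, since PRDX4 differed in light polysomes and PRDX5 mainly in heavy ones.

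**Figure D4:**
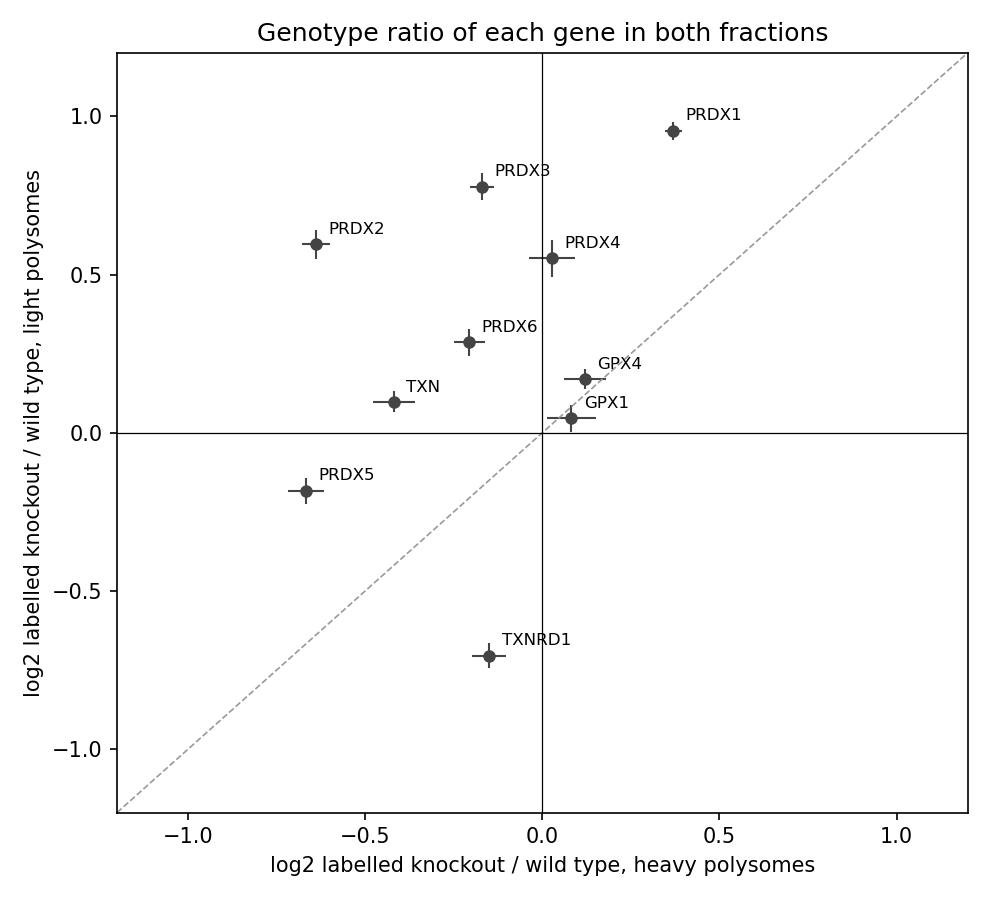
Log2 ratio of the labelled knockout to the wild type in heavy (horizontal) and light polysomes (vertical) for each gene, with 95% counting intervals; on the dashed diagonal both fractions differ equally. PRDX2, PRDX3, PRDX6 and TXN lie in the upper left quadrant (lower in heavy, higher in light), PRDX1 at the upper right and PRDX5 and TXNRD1 at the lower left.

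Further genes of these pathways were taken as 5 lists. Their counts of shifts below 0 were taken with TMM scaling alone, and shifts near 0 can change sign with the scaling, as those of GPX1 and GPX4 did. The shares of all genes set beside them were not matched for the heavy to light ratio. The median shift differed with that ratio, at -0.22 among genes like PRDX3 in mean ratio and 0.25 among those like TXN. In the rest of the thioredoxin system, 3 of 10 tested genes were called heavy and 3 light (median log2 ratio -0.25), at the level of all genes tested (30.0% heavy and 29.3% light). TXNRD2, the mitochondrial reductase, rose by 1.79 in heavy over light polysomes (edgeR adjusted p = 5.18e-10), and TXNDC17, a small thioredoxin-like protein, fell by 1.34 (edgeR adjusted p = 2.93e-06). SRXN1, sulfiredoxin, which repairs over-oxidised peroxiredoxins, had the highest shift of the list, at 0.61 (0.50 to 0.71), and was called light (-0.88, edgeR adjusted p = 0.00585). The lowest shift was that of TXNRD2 (-0.80, -1.16 to -0.44). A shift below 0 was found in 7 of 9, beside 53.5% of all genes (median -0.26, beside -0.05 over all genes).

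Among genes of glutathione synthesis, recycling and use, 3 of 18 were called heavy and 4 light (median 0.0063), beside 30.0% and 29.3% of all genes tested. A shift below 0 was found in 15 of 18, beside 53.5% of all genes (median -0.50, beside -0.05 over all genes). GLRX5, a mitochondrial glutaredoxin, fell by 1.31 (edgeR adjusted p = 4.49e-05). GCLC, the catalytic subunit of the first enzyme of glutathione synthesis, had the highest shift, 0.25 (0.12 to 0.39).

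Of the superoxide dismutases and catalase, 1 of 4 was called heavy, CAT at 1.86 (edgeR adjusted p = 3.04e-09), and all 4 had shifts below 0 (median -0.56), beside 30.0% called heavy and 53.5% with a shift below 0 over all genes. SOD1, the cytosolic superoxide dismutase, had the lowest heavy to light ratio (-0.34, edgeR adjusted p = 0.363) and the lowest shift (-0.91, -0.95 to -0.86), and SOD2 the highest shift, -0.33. Among the transcription factor NRF2, its regulators and its targets, 3 of 10 were called heavy and the other 7 were not called (median 0.14), beside 30.0% heavy and 29.3% light over all genes. Their shift was below 0 in 8 of 10, beside 53.5% of all genes (median -0.26). TKT rose by 1.82 (edgeR adjusted p = 2.63e-07) and TALDO1, an enzyme of the pentose phosphate pathway like TKT, had the lowest shift (-1.002, -1.07 to -0.93). NFE2L2, which encodes NRF2, had the lowest ratio (-0.57, edgeR adjusted p = 0.0928), and KEAP1, its inhibitor, the highest shift (0.80, 0.62 to 0.98).

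Selenoproteins outside the set and the factors that insert selenocysteine were called light in 10 of 18 and heavy in 3 (median -0.88), beside 29.3% light and 30.0% heavy over all genes. Their shifts were split, with 9 of 17 below 0 and a median of -0.02, beside 53.5% of all genes below 0. SELM fell by 1.95 (edgeR adjusted p = 3.47e-11) in heavy against light polysomes, and EEFSEC, the elongation factor for selenocysteine, rose by 2.08 (edgeR adjusted p = 9.17e-13). EEFSEC also had the lowest shift, -0.96 (-1.26 to -0.67), and SEPN1 the highest, 0.59 (0.48 to 0.70). The shares of all genes called were not matched for coding length. SELM has 438 coding nucleotides, and genes of up to 500 had a median log2 heavy to light ratio of -1.24 in each gradient.

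**Figure D5:**
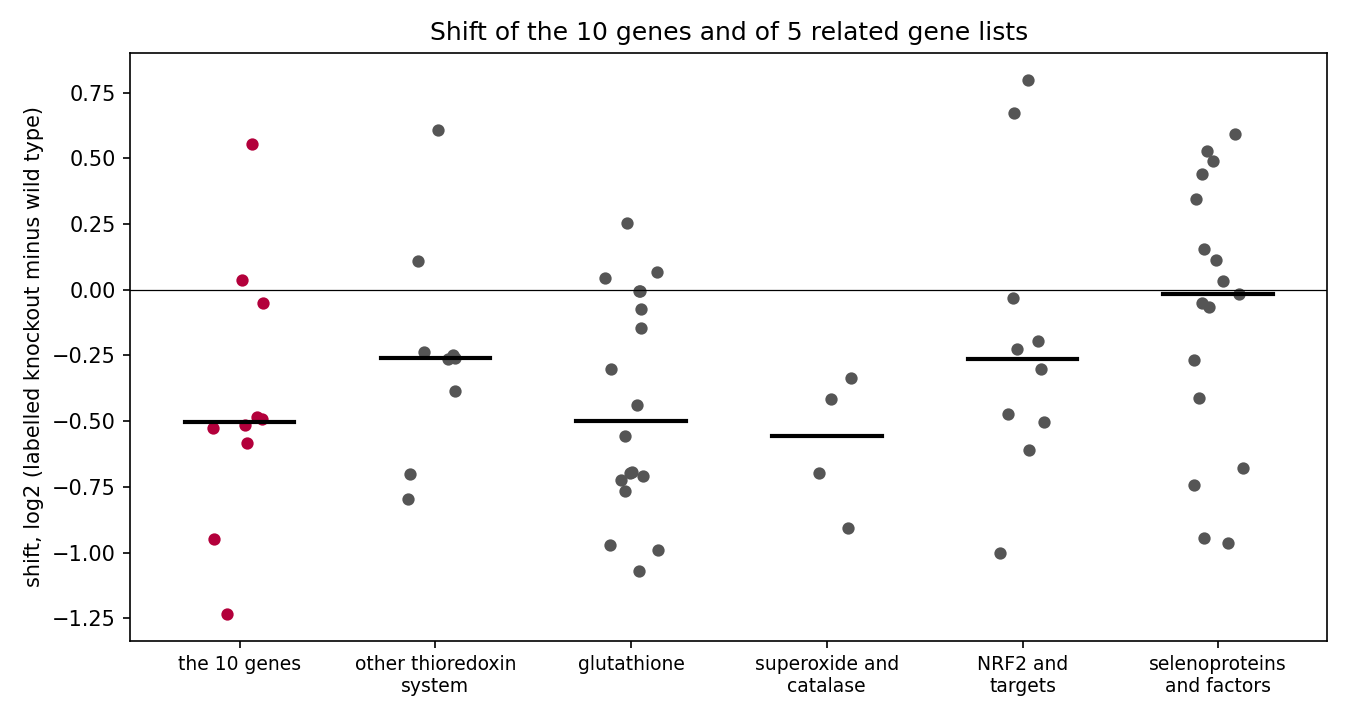
Shift of the log2 heavy to light ratio (labelled knockout minus wild type) for the 10 genes (red) and for genes of the 5 related lists with 50 or more counts per library (grey), with horizontal bars at the medians. The medians lie at -0.50 for the 10 genes and for glutathione genes, at -0.56 for superoxide dismutases and catalase, and at -0.02 for selenoproteins and their factors. Over all genes the median was -0.05. The 10 genes include PRDX2, which was picked by its shift, so their median is a description only.

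The genes most like PRDX2 over the 4 libraries were found by the distance between centred log2 CPM profiles, among 9815 genes with 100 or more counts per library. They were IQGAP1, a cytoskeletal scaffold (distance 0.13), SDHB, a subunit of respiratory complex II (0.15), PSMD8, a proteasome subunit (0.16), MRPS18A, a mitochondrial ribosomal protein (0.17), and GDPD1 (0.20). Their shifts ran from -1.17 for PSMD8 to -0.92 for MRPS18A, and their coding sequences from 591 nucleotides for MRPS18A to 4974 for IQGAP1. Because these genes were chosen by the same 4 libraries, ratios and shifts near those of PRDX2 follow from the choice and are no separate result. PSMD8 had log2 heavy to light ratios of -0.07 in the labelled knockout and 1.10 in the wild type, close to those of PRDX2. Within the set PRDX3 was the nearest to PRDX2, at rank 162 (distance 0.40), followed by PRDX6 at rank 1020, and GPX4 was the farthest (distance 2.25). The nearest sequence relative, PRDX1, stood at rank 1960.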

How the data were processed

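The tools CASAVA, STAR and HTSeq and the build hg19 are named in the submitters' processing notes. Tool versions, gene annotation and strandedness are not given in the sources. The values are whole-number read counts per gene symbol as deposited by the authors, not normalised as far as the library totals show. Symbols were matched to GENCODE 44 (GRCh38), 23035 directly and 1392 through RefSeq synonyms, for positions, coding lengths and sequences only.

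edgeR 4.0.16 in R 4.3.3 was fitted to all genes with TMM scaling, filterByExpr and the gradient as a block. With 1 residual degree of freedom, its spread is the disagreement between the genotypes, taken mostly from all genes together. The SE was 0.319 for both PRDX2 and GPX4, whose shifts were -1.23 and -0.05. It thus hardly followed a gene's own disagreement between the gradients. Whether the gradients came from separate cultures is not given, so p-values measure only the spread between these libraries. On simulated data for this contrast (13402 genes), 84% of 100 genes with a 2-fold change (log2 of 1) were recovered. Genotype ratios and shifts used TMM-scaled counts with a prior count of 2, 95% counting intervals and no test. Genotype ratios over all genes needed 100 counts in the higher library. Coding length classes came from the canonical transcript.

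The genes, the lists and the tests were chosen with earlier results of these data known. Named genes were all 10 members, DICER1, at most 4 genes per list (highest and lowest ratio and shift) and the 5 genes most like PRDX2. One gene that this rule selects is not reported here. DESeq2 1.42.0 served as an alternative, and Python 3.11.15 for all other values.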

Additional observations from a re-analysis of the deposited data

Results flagged for a closer look

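In 5 genes the labelled knockout and the wild type lay on opposite sides of 0 in the heavy to light ratio, or heavy and light polysomes did in the genotype ratio, with 1 library per group, so that the difference was not tested. PRDX2 was picked by its shift, and the share of all genes that meet this rule was not counted. The number 5 is therefore no result about the set. The shifts were -1.23 for PRDX2, -0.95 for PRDX3, -0.52 for PRDX4, -0.49 for PRDX6 and -0.52 for TXN. For PRDX2 and PRDX6 both descriptions hold. The heavy to light ratio of PRDX2 in the labelled knockout was -0.05, close to 0, and that of PRDX6 was -0.18, against 0.32 in the wild type, which was 0.0115 with library totals. PRDX3 and TXN qualified by the genotype ratios only, and PRDX4 by the heavy to light ratios only, with a wild type value of 0.06 that was -0.24 with library totals.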

How the results depend on the processing

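Of the 9 genes tested for heavy against light polysomes, TXN, GPX1 and GPX4 kept their calls under all 6 alternatives. Calls toward heavy polysomes among the 9 numbered 0 with RLE size factors, 0 with library totals and 0 with no replicate block, where at an unadjusted p under 0.05 edgeR gave 1, 0 and 0. With DESeq2 there were 2 (2 unadjusted), which added PRDX1. Calls toward light polysomes numbered 5 with library totals. Without the block 2183 genes in all were called light, against 3977 with it, a difference of design and not of samples. PRDX6 had a ratio of -0.16 with library totals, and in a single gradient, which leaves no test, the range was -0.047 to 1.19 for PRDX2, -0.18 to 0.32 for PRDX6 and -0.46 to 0.064 for PRDX4, in each case with the lower value in the labelled knockout. The shift of PRDX2 was -1.31 with RLE size factors and -1.09 with library totals. Relative to genes of like mean ratio it was -1.08 and relative to its length class -1.13, both chosen after seeing the data. Genes shifted 2-fold toward light and toward heavy polysomes numbered 257 and 98 with TMM, 390 and 52 with RLE size factors and 107 and 265 with library totals. With minimums of 25 and 100 counts per library in place of 50, 158 and 61 were shifted toward heavy polysomes, by fewer or more genes entering. The cause of the other differences was not tested. No other paired fit was made, because each gradient is 1 genotype. Depth does not limit these genes, since each had at least 3305 counts, but the lack of replicates limits every genotype difference.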

Other observations

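Selenoprotein mRNAs outside the set were set beside mRNAs of like coding length, using the genes with a selenocysteine in GENCODE, a comparison chosen after seeing where GPX1, GPX4 and TXNRD1 lay. Of 14 such genes with 50 or more counts per library, 9 had a heavy to light ratio below the median of their length class in both gradients, as did 42.4% of 10586 genes. SELT, a thioredoxin-like protein of the endoplasmic reticulum, lay lowest, at the 0.0833rd percentile in the labelled knockout (log2 ratio -1.94) and the 0.916th in the wild type (-1.92). SEPHS2, the enzyme that makes the selenium donor and itself a selenoprotein, lay at the 7.47th and 9.26th percentiles. TXNRD2 (87.2nd and 91.6th), SELO (71.4th and 85.8th) and EPT1 (73.1st and 82.7th) lay on the heavy side, so the light position was not shared by all selenoproteins. Of the 14, 9 were called toward light and 3 toward heavy polysomes by edgeR at an adjusted p under 0.05, beside 29.3% and 30.0% of all genes tested. Unlike the percentiles, these shares are not matched for coding length. MSRB1, with 351 coding nucleotides, was among those called light, yet lay at the 61.0th and 63.8th percentiles of its length class. A shift above 0 was found in 5 of the 14, beside 46.5% of all genes.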
